A study of Mus musculus with 6 samples.

Results

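Most of the genes described here encode enzymes, or partners of enzymes, that modify or process transfer RNA (tRNA). All were looked up in mouse embryonic stem cells (mESCs) with and without *Alkbh1*. They were chosen by symbol. The rule takes 38 listed tRNA modification and processing genes, and every gene whose symbol is Trmt, Nsun or Pus followed by a digit. Membership went by symbol, while the probe set of each gene was the one with the highest mean over all arrays. The rule named 55 genes, and 50 of them had a probe set, among 15381 genes named on the array. *Pus7*, *Nsun7*, *Trmt61b* and the pseudogenes *Trmt112-ps1* and *Trmt112-ps2* had none among those, so no level is given for them. Whether the array itself holds probe sets for them was not checked. *Dus2* stood under its older symbol Dus2l in the list.

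The samples were undifferentiated C57BL/6 mESCs at day 0 and passage 8, with 3 WT and 3 *Alkbh1*-/- Affymetrix GeneChip arrays and no treatment before RNA extraction. The study established the lines of both genotypes from early embryos of the same litters. Per its methods, the cultures received leukemia inhibitory factor and lay on irradiated CF-1 embryonic fibroblasts, whose RNA can enter the extract. The arrays of a genotype share 1 code in the labels, which do not say whether they came from separate cultures. The tables hold the authors' means, over all 6 arrays or over a genotype, so the differences below carry no error and were not tested, and the small number of arrays limits their precision.

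Newly made tRNAs are trimmed at both ends, spliced where they hold an intron, given their CCA tail and then modified at many bases. Modifications of the anticodon loop tune decoding, and those of the tRNA body help folding and stability. ALKBH1 itself is known as a tRNA enzyme: it removes the methyl group that TRMT6 and TRMT61A place on an adenosine of cytoplasmic tRNAs, and in mitochondria it oxidizes the methylcytidine that NSUN3 places at the wobble base of methionine tRNA. The comparison asks whether the transcripts of the enzymes that write and mature these marks differed in cells without *Alkbh1*.

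Promoter sequences were matched for 40 of the members, giving 49 promoters, each taken as the 250 bases before an annotated start (RefSeq, GRCm38.p6). They held a median of 17 CpG dinucleotides and 60.0% G+C, against 6 and 52.4% over all 32851 promoters. The GC box GGGCGG, the letters bound by Sp-family factors, stood on either strand in 44.9% of the members' promoters and in 32.7% of all. The letters CCGGAAG, a core of sites for ETS-family factors, stood on either strand in 20.4% of the members' promoters and in 6.91% of all, whereas TATAAA stood in 4.08% and 12.4% and CCAAT in 32.7% and 33.8%. Several promoters of 1 gene can overlap, so the shares are descriptions, and a match is not a site in use. The background of all promoters covers 27025 genes, more than the 15381 named among the probe sets with a mean level. It was not matched to the members by expression or type of gene.

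Below are the promoters of the 2 members that were higher in *Alkbh1*-/- mESCs and of 2 that were lower, shown because the genotype means below turn on these genes. That of *Trmt2b* lies on the minus strand of chrX:134276985-134277234, that of *Trmt44* on the minus strand of chr5:35575071-35575320, that of *Pus7l* on the minus strand of chr15:94543508-94543757 and that of *Nsun3* on the minus strand of chr16:62786717-62786966. Each is written 5′ to 3′ towards the start, with GGGCGG and CCGGAAG, in either orientation, in capitals.
Trmt2b: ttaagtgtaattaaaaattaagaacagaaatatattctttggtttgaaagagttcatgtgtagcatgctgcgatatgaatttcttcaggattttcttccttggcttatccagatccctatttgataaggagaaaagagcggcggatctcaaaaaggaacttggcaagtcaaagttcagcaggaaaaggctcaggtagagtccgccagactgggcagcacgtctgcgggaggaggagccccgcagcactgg
Trmt44: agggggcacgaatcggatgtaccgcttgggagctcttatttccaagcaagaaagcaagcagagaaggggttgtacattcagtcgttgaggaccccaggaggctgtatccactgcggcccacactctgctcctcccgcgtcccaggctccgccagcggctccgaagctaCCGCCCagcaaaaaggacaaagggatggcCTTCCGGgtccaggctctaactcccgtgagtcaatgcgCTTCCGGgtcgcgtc
Pus7l: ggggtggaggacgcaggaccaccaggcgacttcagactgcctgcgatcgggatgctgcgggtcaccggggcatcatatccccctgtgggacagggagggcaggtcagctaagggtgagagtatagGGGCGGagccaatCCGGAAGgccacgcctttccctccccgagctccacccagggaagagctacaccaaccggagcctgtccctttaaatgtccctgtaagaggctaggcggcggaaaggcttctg
Nsun3: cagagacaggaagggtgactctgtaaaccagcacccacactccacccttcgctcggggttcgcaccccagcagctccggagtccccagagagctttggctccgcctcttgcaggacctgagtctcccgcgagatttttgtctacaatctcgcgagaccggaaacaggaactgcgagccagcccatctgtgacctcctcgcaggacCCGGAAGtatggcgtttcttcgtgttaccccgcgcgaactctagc
*Trmt44* and *Pus7l* held both motifs, *Nsun3* held the ETS core alone, and the window of *Trmt2b* held neither and only 7 CpG dinucleotides, against 17 in *Trmt44*, 13 in *Pus7l* and 18 in *Nsun3*. Of the listed members not shown, the window of *Trmu* held neither motif and 21 CpG dinucleotides, and of 3 windows of *Trmt10a* 2 held a GC box alone and 1 the ETS core alone.

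The targeted gene matched the labels. The mean of *Alkbh1* was 9.57 in WT and 4.69 in *Alkbh1*-/- mESCs on the log2 scale at its brightest probe set (1434660_at), a difference of -4.89, and the difference at its other probe set (1438681_at) was -1.79. The 8 stem cell markers, among them *Pou5f1*, *Sox2* and *Nanog*, had mean log2 levels from 10.05 to 14.49, above the median of 6.31 over all probe sets. That median was also reached by 9532 of all 15381 genes. The levels are means over both genotypes, so they do not check the identity of either line.

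The levels over all 6 arrays showed most of these enzymes in the brighter part of the probe sets with a mean level. At the brightest probe set of each gene, 45 of the 50 members reached the overall median of 6.31, against 9532 of all 15381 genes. Taking the brightest probe set lifts any set of genes towards that line. The members ran from 3.92 to 11.89 on the log2 scale with a median of 8.25. The exceptions were *Adat1* at 5.51, *Nsun6* at 6.22, *Trmt2b* at 6.04, *Trmt12* at 3.92 and *Trmt9b* at 3.93. Each probe set has its own brightness, so these levels do not order the genes by transcript abundance. In the brightest probe sets of *Elp2*, *Ctu2*, *Trmt1* and *Trnt1* the name ending marks probes that may also bind related transcripts.

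**Figure D1:**
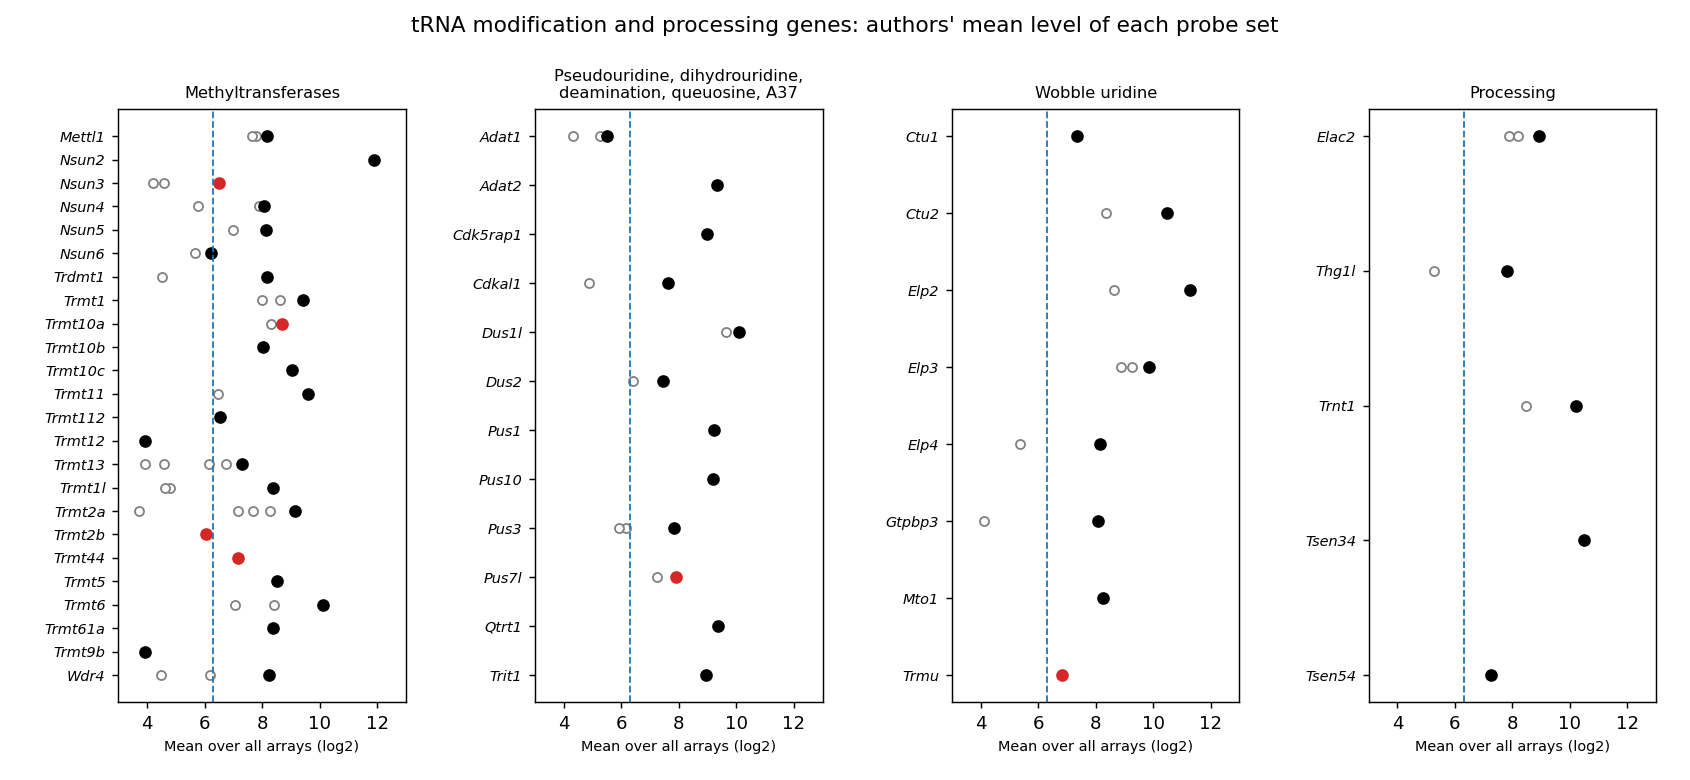
Mean log2 level over all 6 arrays (horizontal axis) of each member's probe sets, in 4 panels by role. Filled points mark the brightest probe set of a gene, open circles its other probe sets, red the 6 members listed in the class comparison, and the dashed line the median of all probe sets (6.31). Of the 49 filled points drawn, 44 lie at or above that line, against 9532 of all 15381 genes by the same rule.

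Genotype means were given only in the authors' class comparison, which lists probe sets with a nominal p of 0.05 or below. The class comparison listed 6 of the 50 members (12%), against 14.9% of all 15381 genes. The mean was higher in *Alkbh1*-/- mESCs for 2 of them, *Trmt2b* and *Trmt44*, and lower for 4, *Pus7l*, *Trmt10a*, *Nsun3* and *Trmu*. The share of members listed was near the background. The median difference was -0.46 over the 6 listed members and -0.44 over all listed genes, of which 1090 were higher and 1204 lower. No listed difference was smaller than 0.37 in size, so such a median falls on the side with more genes and shows no common shift. A fold over 1.5 was passed by 2 members in the higher direction, against a background of 4.75% of all genes, and by 0 in the lower direction, against 4.97%. For the 44 members that were not listed no genotype means were given, and nothing is said here about their difference.

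**Figure D2:**
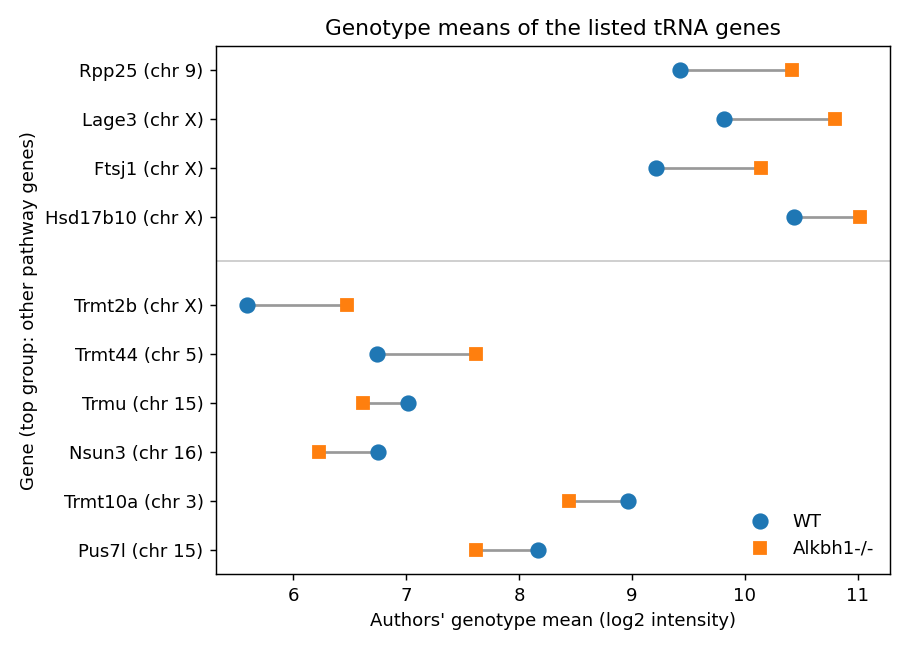
Authors' mean log2 intensity in WT (circles) and *Alkbh1*-/- (squares) mESCs of the 6 listed members (lower group) and of the 4 listed genes among the other tRNA pathway genes (upper group). Lines join the genotypes of a gene; *Trmt2b* and *Trmt44* lie higher in *Alkbh1*-/- mESCs, 4 members lie lower, and all 4 genes of the upper group lie higher. The means carry no error bars because each is a mean that the tables give without its spread.

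The methyltransferases, grouped by symbol and counted with their partners, were the largest group, with 24 members, of which 2 were higher and 2 lower. *Trmt2b*, which makes 5-methyluridine in mitochondrial RNA, had a mean intensity of 48.2 in WT and 89.3 in *Alkbh1*-/- mESCs (1433672_at). On the log2 scale these were 5.59 and 6.48, a difference of 0.89 or 1.85-fold, on a dim probe set whose WT mean lay below the median of all probe sets. *Trmt44*, the counterpart of a yeast enzyme that methylates a ribose of serine tRNA, had a mean intensity of 107 in WT and 196 in *Alkbh1*-/- mESCs (1460410_at). Its log2 means were 6.74 and 7.62, a difference of 0.87 or 1.83-fold. Both genes had only 1 probe set, so no second measurement bears on them.

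The lower methyltransferases were *Trmt10a* and *Nsun3*. *Trmt10a*, which methylates a guanosine in the core of cytoplasmic tRNAs, had log2 means of 8.96 in WT and 8.44 in *Alkbh1*-/- mESCs (1435035_at), a difference of -0.52, or 1.44-fold lower. Its other 2 probe sets, with mean levels of 8.68 and 8.31 over all arrays, were not listed. *Nsun3*, which places the wobble mark that ALKBH1 oxidizes in mitochondria, had log2 means of 6.75 and 6.23 (1436735_at), a difference of -0.52, or 1.44-fold lower. Its other probe sets, at 4.60 and 4.19, lay below the median of all probe sets and were not listed. The *Nsun3* and *Trmt10a* differences were thus each seen at 1 of 3 probe sets.

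The other 20 members of the methyltransferase group were not listed. They included both subunits of the complex whose mark ALKBH1 removes, *Trmt6*, with a mean log2 level of 10.12 over all arrays, and *Trmt61a*, at 8.37. *Trmt61a* and the guanosine methyltransferase *Trmt5* (8.51) lie on chromosome 12, as *Alkbh1* does. Also not listed were *Nsun2* (11.89), which places 5-methylcytidine in many tRNAs, *Trdmt1* (8.16), which methylates a cytidine of aspartate tRNA, and *Mettl1* (8.18) with its partner *Wdr4* (8.25), which make 7-methylguanosine. The same held for *Trmt1* (9.41), which makes dimethylguanosine, *Trmt11* (9.61) and its partner *Trmt112* (6.53), *Trmt2a* (9.14), the cytoplasmic relative of *Trmt2b*, and *Trmt10c* (9.05), the mitochondrial relative of *Trmt10a* and a subunit of mitochondrial RNase P. The remaining members without genotype means in this group were *Nsun4*, *Nsun5*, *Nsun6*, *Trmt10b*, *Trmt12*, *Trmt13*, *Trmt1l* and *Trmt9b*, with mean log2 levels from 3.92 to 8.38.

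Among the 12 members that act on pseudouridine, dihydrouridine, inosine, queuosine or the base next to the anticodon, *Pus7l* was listed. *Pus7l*, a relative of the pseudouridine synthase Pus7, had a mean intensity of 288 in WT and 196 in *Alkbh1*-/- mESCs (1428800_a_at). Its log2 means were 8.17 and 7.62, a difference of -0.55, or 1.47-fold lower. Its other probe set (1460447_at) was listed too, with log2 means of 7.49 and 6.97 and a difference of -0.52. *Pus7l* was the only member with more than 1 listed probe set, and both lay in the same direction. The other 11 were the pseudouridine synthases *Pus1* (9.23), *Pus3* (7.83) and *Pus10* (9.18), the dihydrouridine synthases *Dus1l* (10.08) and *Dus2* (7.46), the deaminases *Adat1* (5.51) and *Adat2* (9.31), the queuosine enzyme *Qtrt1* (9.35), the isopentenyltransferase *Trit1* (8.94) and the methylthiotransferases *Cdk5rap1* (8.96) and *Cdkal1* (7.64), with their mean log2 level over all arrays.

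Of the 9 members that modify the wobble uridine, *Trmu* was listed. *Trmu*, which thiolates the wobble uridine of mitochondrial tRNAs, had a mean intensity of 130 in WT and 97.9 in *Alkbh1*-/- mESCs (1452786_at). Its log2 means were 7.02 and 6.61, a difference of -0.41 or 1.33-fold lower, close to the smallest difference in the class comparison, 0.37 on the log2 scale (1.29-fold). *Mto1* (8.26) and *Gtpbp3* (8.09), which together modify another position of the same mitochondrial base, were not listed. Neither were the Elongator subunits *Elp2* (11.29), *Elp3* (9.87) and *Elp4* (8.14), which start the modification of the wobble uridine in the cytoplasm, nor the cytoplasmic thiolation enzymes *Ctu1* (7.36) and *Ctu2* (10.47).

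None of the 5 processing enzymes was listed, at any of their 9 probe sets. They were *Elac2* (8.91), which cuts the 3′ trailer, the splicing endonuclease subunits *Tsen34* (10.48) and *Tsen54* (7.25), the CCA-adding enzyme *Trnt1* (10.22) and *Thg1l* (7.81), which adds a guanosine to histidine tRNA. Over all members, 7 of 97 probe sets were listed, against 12.9% of all probe sets.

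A second list held 58 other genes of tRNA modification and maturation, of which 54 had a probe set. The class comparison listed 4 of them, against 14.9% of all genes. All 4 were higher in *Alkbh1*-/- mESCs, where 7.09% of all genes were listed and higher, and 3 passed a fold of 1.5, against 4.75%. These counts were near or below the background and are read as no result about the list. *Ftsj1*, a ribose methyltransferase of the anticodon loop, had log2 means of 9.21 in WT and 10.14 in *Alkbh1*-/- mESCs, a difference of 0.93. *Lage3*, a subunit of the KEOPS complex that helps to modify the adenosine next to the anticodon, had log2 means of 9.81 and 10.79, a difference of 0.98. *Rpp25*, a protein subunit of nuclear RNase P, had log2 means of 9.43 and 10.41, a difference of 0.99. *Hsd17b10*, a subunit of mitochondrial RNase P with *Trmt10c*, lay under the fold of 1.5 and was named after its values were seen, with log2 means of 10.44 and 11.02 and a difference of 0.58.

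All 4 X-linked genes of both lists, *Trmt2b*, *Ftsj1*, *Lage3* and *Hsd17b10*, were listed and higher in *Alkbh1*-/- mESCs, by 0.58 to 0.98 on the log2 scale. The same held for 263 of all 527 X-linked genes (49.9%), with 21 lower, and the median difference of the listed X-linked genes was 0.75. Of the autosomal genes, 5 of 49 members and 1 of 51 other pathway genes were listed, against 13.5% of all genes that are not X-linked. The Y-linked genes moved with genotype as well. The log2 mean of *Eif2s3y* was 9.55 in WT and 3.90 in *Alkbh1*-/- mESCs, that of *Ddx3y* 8.68 and 3.82, and that of *Uty* 6.18 and 3.49, and the X-linked *Xist* was not listed. The difference in sex chromosome genes cannot be told apart from the genotype here. Without *Trmt2b*, 1 member, *Trmt44*, passed the fold of 1.5 in the higher direction.

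**Figure D3:**
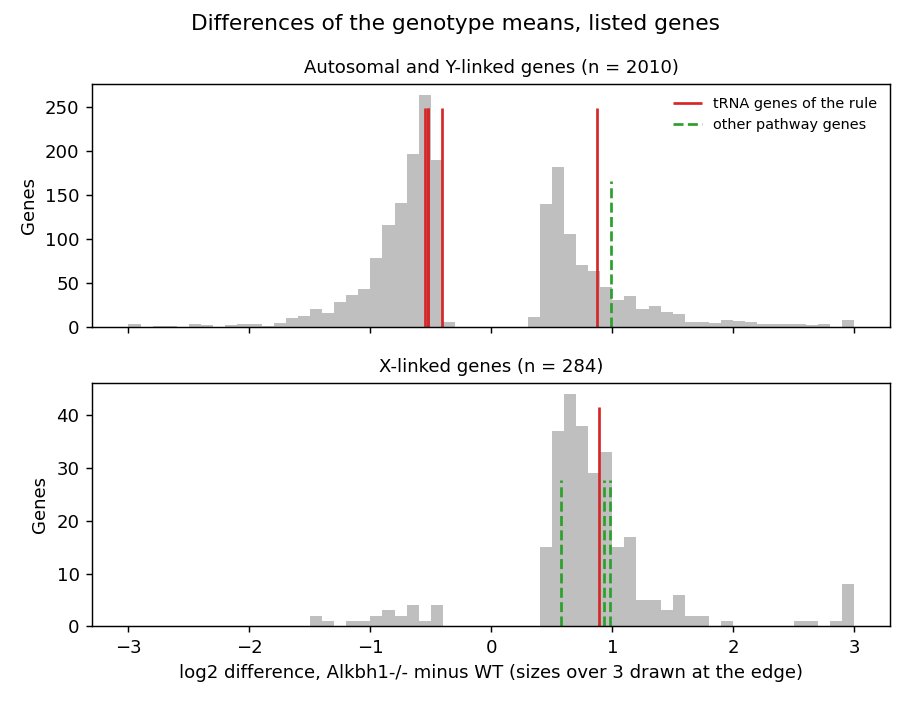
Number of listed genes by log2 difference, *Alkbh1*-/- minus WT, for autosomal and Y-linked genes (upper panel) and X-linked genes (lower panel). Solid red lines mark the 6 listed members and dashed green lines the 4 other pathway genes. The gap around 0 is the range without listed genes, and the 4 lines in the lower panel lie on the positive side, where 263 of the listed X-linked genes lie.

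Some markers of the feeder fibroblasts also differed between the genotypes. Of 10 such markers, 3 were listed at their brightest probe set, against 14.9% of all genes. Each had a lower mean without *Alkbh1*, with log2 differences of -1.06 for *Col1a1*, -0.88 for *Col3a1* and -0.52 for *Thy1*. The other 7 were not listed there, among them the brightest of the 10, *Fn1* (12.06), *Col1a2* (11.82) and *Vim* (11.78). At any probe set, 4 of the 10 were listed, all lower. The summed mean intensity of the 3 listed markers was 2652 in WT and 1426 in *Alkbh1*-/- mESCs. That sum had to be lower, since each of the 3 was lower, and it leaves out the other 7 markers. It therefore does not measure how much feeder RNA was present. Of the 10 markers, 9 reached the overall median. Of the 8 stem cell markers, 4 were listed, 3 higher, with *Nanog* at 1.10, and *Utf1* lower at -0.49. In such bulk extracts fewer cells of a type and less RNA per cell cannot be told apart, and the part of either marker group in the values of *Pus7l*, *Trmt10a*, *Nsun3* and *Trmu*, which were lower too, was not tested.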

How the data were processed

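Total RNA of WT and *Alkbh1*-/- mESCs was hybridized to Affymetrix GeneChip mouse expression arrays, 3 per genotype, and the authors normalized the probe set signals by RMA (version not given in the sources used here). One deposited table holds the authors' mean log2 value over all 6 arrays for 33142 probe sets. The other is a class comparison with the authors' geometric mean intensity per genotype for 4326 of 7320 filtered probe sets. A deposited note says that the WT class of that table carries a wrong code. Both tables also hold the authors' fold changes, test statistics, p-values and false discovery rates, which were not used here. Per-array values were not used here, so no spread, interval or test is given.

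In the class comparison, identifiers and values were out of step: of 4261 identifiers shared with the first table, 8 stood beside genotype means whose midpoint matched their mean within 1e-06. Entries were therefore joined by that midpoint. It matched exactly 1 probe set for 4232 entries, all with an identifier that the class comparison lists, several for 29 and none for 65, and 4256 were joined in all. A gene counted as listed where the identifier of its brightest probe set is in the class comparison, and its difference came from the joined values. By identifier instead, *Alkbh1* would differ by -1.22 at 1434660_at and by 0.60 at 1438681_at.

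Probe sets were named from RefSeq (GRCm38.p6), 28253 of 33142, and a gene was represented by its brightest probe set. Members were named, with both genotype means where listed, except 1 that is counted but not reported here by name, and other pathway genes where listed with a fold over 1.5. The members and lists were chosen with earlier results of these data known. Alternatives were the mean over probe sets, other folds, the join by identifier, other tolerances, a filter on dim probe sets, centring and leaving out the X-linked member. The join was tested on simulated entries with shuffled identifiers, whose midpoints matched their means by construction. That test bears on how the join works and cannot show that the deposited entries were paired rightly. Tools were Python 3.11.15, pandas 2.3.3, NumPy 2.4.6 and matplotlib 3.10.9.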

Additional observations from a re-analysis of the deposited data

How the results depend on the processing

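The number of listed members (6) rests on identifiers alone, so neither the join tolerance nor averaging or centring could change it. Both other tolerances gave the same differences. The medians of the genotypes differed by -0.01 on the log2 scale, too little for centring to reverse any member. Averaging was run over listed probe sets only and so could move *Pus7l* alone, which became -0.53. The count of members at or above the median level was 45, and 40 with the mean over all probe sets. The number past the fold in the higher direction was 0 with a fold over 2 and 0 with a log2 difference over 1.5, 1 among members at or above the median level and 1 without the X-linked member, an alternative chosen after seeing the data. With the join by identifier, 3 members passed the fold in the lower direction, and the log2 difference reversed to 0.64 for *Pus7l*, 0.57 for *Trmt10a*, -0.63 for *Trmt2b*, -0.61 for *Trmt44* and 0.64 for *Trmu*, while *Nsun3* stood at -0.60. That join pairs identifiers with values that do not match their means. No paired analysis was possible because the columns hold means of a genotype or of all arrays and carry no replicate numbers, and leaving out each replicate in turn was not run for the same reason.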
